A study of Mus musculus with 48 samples.

Results

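Adipocyte formation was followed through 8 transcription factors in RNA of whole mouse tibiae: Pparg, Cebpa, Cebpb, Cebpd, Rxra, Klf15, Ebf2 and Zfp423. They were chosen by name for their role in fat cell differentiation, with earlier results of these data known, and are 8 of the 29801 genes in the table. The tibiae came from 12 male C57Bl6J mice in groups of 3, namely aged CR, aged AL, young CR and young AL. AL mice ate control chow ad libitum. CR (caloric restriction) lasted 8 weeks, with 10% less food in week 1, 20% less in week 2 and 40% less from week 3, on a chow fortified with micronutrients, so that restriction and chow differed together. The design text gives ages of 15 to 18 months for aged and 10 weeks for young mice, which by the study's methods are ages near the start of the diet, so the mice were older by about its length when the tibiae were taken. By the study's methods, tibiae were cut surgically in the last weeks of the diet, and the sources used here do not say whether a sequenced bone was an operated one.

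In the textbook sequence of adipogenesis, C/EBPβ and C/EBPδ (from Cebpb and Cebpd) appear first and induce Pparg and Cebpa, whose products then keep each other expressed. PPARγ binds DNA as a heterodimer with RXRα, the product of Rxra, and turns on genes for lipid uptake and storage. KLF15 is a zinc finger factor induced by glucocorticoids and fasting that promotes Pparg expression and lipid synthesis. ZFP423 and EBF2 mark committed adipocyte precursors, ZFP423 in white fat and EBF2 chiefly in brown and beige fat. Several of these factors also serve blood cells, above all C/EBPα, C/EBPβ and C/EBPδ in granulocytes and macrophages, which fill the marrow. A tibia holds marrow fat cells beside bone, stroma and blood-forming cells, so fewer cells of a type and less RNA per cell cannot be told apart in these samples.

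The bases before the start sites are shown for 3 of the members, Pparg, Klf15 and Rxra, as RefSeq gives them on GRCm38. Capitals mark the searched short motifs, on either strand: CCAAT, the relaxed C/EBP element TTGCNNAA, the short form TGACG of the cAMP response element and the GC box GGGCGG. The first is the most downstream Pparg start of 3 in the table, the start of the adipocyte-selective Pparg2 form, at chr6:115421816-115422065 on the plus strand. Klf15 follows at chr6:90462326-90462575 and the upstream Rxra start at chr2:27676951-27677200, both on the plus strand.
Pparg2: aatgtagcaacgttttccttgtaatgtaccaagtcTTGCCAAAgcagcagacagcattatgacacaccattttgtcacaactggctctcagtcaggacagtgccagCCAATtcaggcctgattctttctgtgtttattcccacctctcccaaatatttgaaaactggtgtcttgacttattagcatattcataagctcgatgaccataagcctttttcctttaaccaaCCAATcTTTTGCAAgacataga
Klf15: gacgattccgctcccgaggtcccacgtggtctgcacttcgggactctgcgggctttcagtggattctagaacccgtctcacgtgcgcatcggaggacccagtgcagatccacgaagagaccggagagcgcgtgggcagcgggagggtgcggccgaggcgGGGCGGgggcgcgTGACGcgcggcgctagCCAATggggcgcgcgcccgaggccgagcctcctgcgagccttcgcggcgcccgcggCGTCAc
Rxra: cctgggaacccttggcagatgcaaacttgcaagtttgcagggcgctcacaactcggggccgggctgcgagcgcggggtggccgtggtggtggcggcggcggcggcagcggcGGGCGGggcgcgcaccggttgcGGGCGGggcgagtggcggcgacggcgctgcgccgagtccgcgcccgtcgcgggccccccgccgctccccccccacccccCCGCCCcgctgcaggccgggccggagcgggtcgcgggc
The 3 stretches differed in composition, with 40.8% G and C bases before the Pparg2 start, 72.0% before Klf15 and 81.2% before Rxra. The relaxed C/EBP element, which 10.8% of the 32851 promoters in the table hold, occurred at −215 and −16 from the Pparg2 start, beside CCAAT at −144 and −22. Klf15 held CCAAT at −62 (37.4% of promoters) and TGACG at −78 and −6 (20.8% of promoters). GC boxes (35.7% of promoters) stood at −91 before Klf15 and at −139, −117 and −38 before Rxra, whose stretch held no other searched motif. The stretch before Cebpa, not printed here, held none of the searched motifs. In the 10 windows of the 6 members with an entry, none held the C/EBP palindrome TTGCGCAA, the whole cAMP response element TGACGTCA, the glucocorticoid receptor element or the PPAR:RXR element. These occur in 0.183%, 1.79%, 0.475% and 0.0396% of all promoters. Matches are letters in a window, not measured binding.

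The unit is FPKM, sequenced fragments scaled to transcript length and to the mapped reads of a library, quantile normalized by the authors. With length accounted for, levels can be set side by side between genes. Mean levels over the 12 mice ran from Cebpd at 38.4 FPKM through Cebpa (19.6), Cebpb (16.6), Pparg (12.9), Rxra (5.71), Klf15 (1.32) and Zfp423 (0.388) to Ebf2 (0.0826). This order of neighbours held in 12 of 12 mice, except Cebpa above Cebpb (9 of 12) and Cebpb above Pparg (10 of 12). The 2 precursor factors thus stood at the bottom and C/EBPδ at the top in every tibia. Marker genes of all 9 cell types looked for were found above 0 in every mouse. The 7 bone cell markers and the 11 neutrophil markers were among them, and so were 8 skeletal muscle genes, at a summed 148 to 1100 FPKM, although the extraction protocol states that adherent muscle was removed. Aged AL mouse 14 and aged CR mouse 5 lay farthest from their groups, at a root mean square of 0.435 and 0.378 log2 units, against 0.243 to 0.362 in the other mice.

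**Figure D1:**
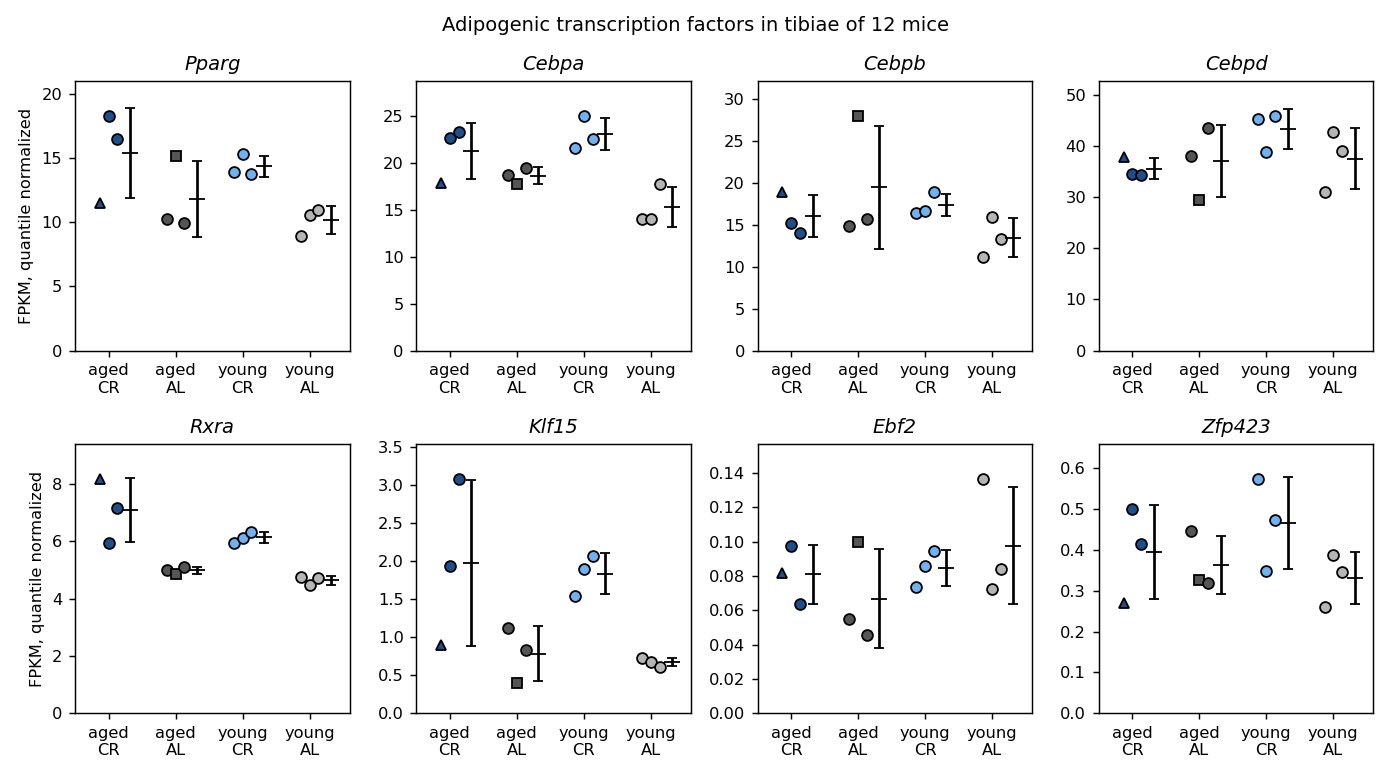
FPKM of the 8 members (y axis, linear from 0, each panel with its own scale) in aged CR, aged AL, young CR and young AL tibiae; points are mice, bars mean ± SD (n = 3), with a square for mouse 14 (aged AL) and a triangle for mouse 5 (aged CR). All 6 CR mice lie above all 6 AL mice for Rxra. Klf15, Pparg, Cebpa and Cebpb separate by diet in young mice and overlap in aged mice.

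To ask whether CR altered the adipogenic factors, differences were taken on log2(FPKM + 1) in limma, one model of all 12 mice, with Benjamini-Hochberg adjustment over the 13590 genes that averaged 1 FPKM or more. Of the 8 members 6 reached that mean, and Klf15 did so only through its CR mice, so counts over these 6 are a description. With both ages pooled, 1 member, Rxra, passed the adjusted threshold of 0.05, as did 0.258% of all genes tested. In aged mice 0 members passed, as 0% of all genes did, and 2 members had a positive difference with an unadjusted p under 0.05 (4.5% of genes). In young mice 0 members passed, against 0.0662% of all genes, and 4 had a positive difference with an unadjusted p under 0.05 (5.79% of genes). The unequal-variance test on FPKM called 0 members at either age, as it called 0 of the 13590 genes. Over both ages 4 of the 6 had a positive limma difference with an unadjusted p under 0.05, as did 7.42% of genes. These were Rxra, Cebpa, Klf15 and Pparg. The median log2 difference of the 6 was 0.38, beside 0.00 over all genes tested.

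Groups were also compared for overlap, without a model. The lowest CR value exceeded the highest AL value for 1 member in aged mice (5.7% of all genes), for 5 members in young mice (10.1%) and for 1 member within each age at once (1.53%). That 1 member was Rxra in each case, joined in young mice by Pparg, Cebpa, Cebpb and Klf15.

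Rxra (ENSMUSG00000015846, chr2:27676440-27762957, plus strand), the partner of PPARγ and of many other nuclear receptors, was the member whose diet groups stood apart at both ages. It stood at 8.17, 5.94 and 7.16 FPKM in aged CR mice, against 5.01, 4.85 and 5.09 FPKM in aged AL mice. In young mice the values were 5.95, 6.12 and 6.33 FPKM under CR and 4.75, 4.47 and 4.72 FPKM under AL. Every CR tibia thus carried more Rxra RNA than every AL tibia of either age, and the AL groups spread little, with an SD of 2.43% of the mean in aged AL and 3.37% in young AL mice. The log2 difference over both ages was 0.38 ± 0.07 (SE; limma, adjusted p = 0.0499), a ratio of mean FPKM of 1.37. An exact permutation of diet labels within age gave p = 0.005, the smallest that 400 regroupings allow (two-sided). In aged and young mice alone the log2 differences were 0.43 and 0.34 (limma, adjusted p = 0.306 and 0.235). The call lay at the threshold: leaving out any 1 mouse gave limma adjusted p-values of 0.0276 to 0.141, and it was lost in 9 of 12 such fits, all but those without aged AL mouse 14, aged CR mouse 5 or aged CR mouse 6. It was also lost at a pseudocount of 0.1 (adjusted p = 0.05005) and without the expression filter (adjusted p = 0.0886), while a quality weight per mouse gave an adjusted p of 0.00521 (limma throughout).

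Klf15 (ENSMUSG00000030087, chr6:90462576-90475238, plus strand) had the largest ratio between diets of the 8. Aged CR mice had 0.898, 1.94 and 3.08 FPKM, against 1.12, 0.402 and 0.837 FPKM in aged AL mice. Young CR mice had 1.54, 1.89 and 2.07 FPKM, against 0.725, 0.680 and 0.614 FPKM in young AL mice. The young groups stood clear of each other, whereas in aged mice CR mouse 5 fell below AL mouse 13. Mean FPKM was 2.61 times as high under CR as under AL over both ages. On the log2(FPKM + 1) scale, which understates changes of low genes, the difference was 0.72 ± 0.17 (SE; limma, adjusted p = 0.0901), and did not pass. The exact permutation test of diet within age gave p = 0.01. Leaving out any 1 mouse gave limma adjusted p-values of 0.0141 to 0.216, the lowest without aged CR mouse 5. Leaving out that mouse and aged AL mouse 14, an alternative chosen after seeing the data, gave an adjusted p of 0.00659 (limma). In the young groups fitted alone the adjusted p was 0.0358 (limma). Since Klf15 met the expression filter only through its CR mice, these limma values are a description and support no call, and without the filter the adjusted p over both ages was 0.192. As KLF15 is also abundant in muscle, the muscle markers were set beside it: their level had r = −0.09 with Klf15 over the 12 mice. The part of muscle RNA in the Klf15 values was not tested.

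Cebpa (ENSMUSG00000034957, chr7:35119293-35121928, plus strand) is required for mature fat cells and for granulocyte formation. In aged mice it had 17.9, 22.7 and 23.3 FPKM under CR, against 18.7, 17.7 and 19.5 FPKM under AL. In young mice it had 21.7, 25.0 and 22.6 FPKM under CR, against 14.1, 14.1 and 17.7 FPKM under AL. The young AL mice were the low group, averaging 15.3 ± 2.12 FPKM (SD, n = 3). The log2 difference was 0.17 ± 0.12 in aged and 0.57 ± 0.12 in young mice (SE; limma, adjusted p = 0.763 and 0.157). Over both ages it was 0.37 ± 0.08 (SE; limma, adjusted p = 0.0844), with an exact permutation p of 0.015. The diet effect was smaller in aged than in young mice by 0.40 log2 units, an interaction that missed the threshold (limma, p = 0.0362, adjusted p = 0.999). Of 16 alternatives 3 brought Cebpa under the threshold over both ages, with limma adjusted p-values of 0.0106 to 0.216 over all 16. With 1 mouse left out, Cebpa passed only without aged CR mouse 5 (limma, adjusted p = 0.0246), the CR mouse with the lowest Cebpa. That fit called 135 genes higher and 88 lower, against 26 and 9 in the main fit.

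Pparg (ENSMUSG00000000440, chr6:115360951-115490399, plus strand), the receptor without which fat cells do not form, spread more widely in aged mice. Values were 11.5, 18.3 and 16.4 FPKM in aged CR mice, against 10.2, 15.2 and 9.96 FPKM in aged AL mice. They were 13.9, 15.3 and 13.8 FPKM in young CR mice, against 8.95, 10.6 and 10.96 FPKM in young AL mice. The young groups did not overlap, and in aged mice the overlap came from aged CR mouse 5 and aged AL mouse 14. The log2 difference was 0.36 ± 0.18 in aged mice, 0.46 ± 0.18 in young mice and 0.41 ± 0.13 over both ages (SE; limma, adjusted p = 0.682, 0.387 and 0.179). The exact permutation test of diet within age gave p = 0.03. Without those 2 mice, a choice made after seeing the data, Pparg passed in aged mice, in young mice and over both ages, at log2 differences of 0.72, 0.46 and 0.59 (limma, adjusted p = 0.0304, 0.0468 and 0.00305). The FPKM of Pparg was 1.40 to 3.13 times that of Rxra, with both extremes in these 2 mice, the lower in aged CR mouse 5 and the higher in aged AL mouse 14.

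**Figure D2:**
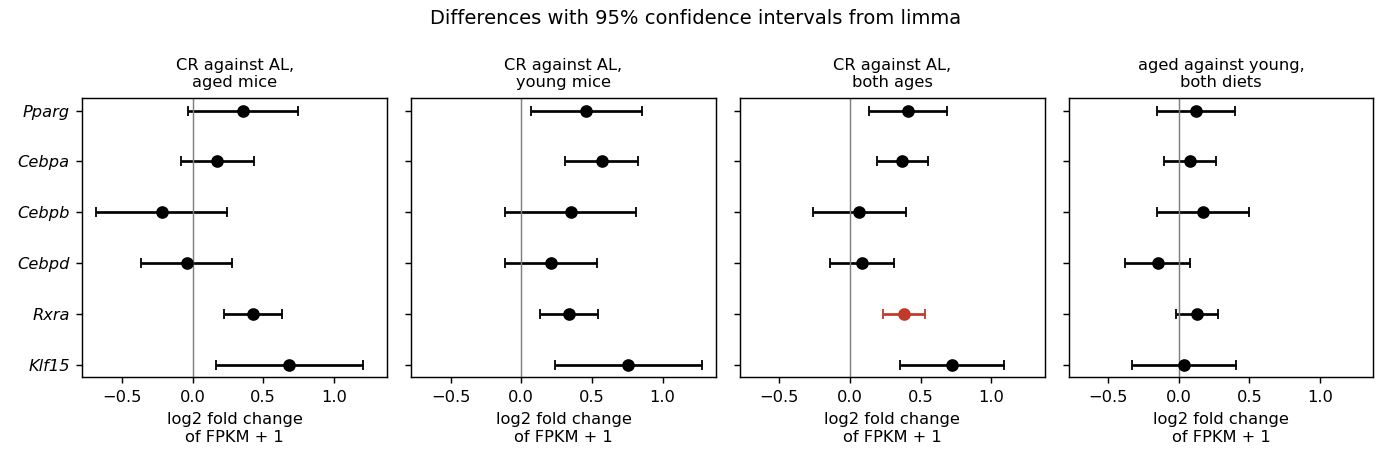
Log2 fold changes of FPKM + 1 (x axis) for the 6 tested members, with limma 95% confidence intervals, for CR against AL in aged mice, in young mice and over both ages and for aged against young mice over both diets; red marks an adjusted p under 0.05. Only Rxra over both ages is red, at 0.38; intervals of Cebpb and Cebpd include 0 in every panel, and those of Pparg and Cebpa also do in aged mice.

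The early factors gave a less even picture. Cebpb (ENSMUSG00000056501, chr2:167688915-167690418, plus strand) had 18.9, 15.2 and 14.1 FPKM in aged CR mice, against 14.9, 28.0 and 15.7 FPKM in aged AL mice. Young CR mice had 16.5, 16.7 and 18.9 FPKM, against 11.2, 16.0 and 13.3 FPKM in young AL mice, without overlap. The sign of the difference therefore differed between ages, negative in aged mice through aged AL mouse 14 and positive in young mice. Log2 differences were −0.22 in aged mice, 0.35 in young mice and 0.07 over both ages (limma, adjusted p = 0.857, 0.566 and 0.877), and without aged AL mouse 14 the aged value was 0.06. The interaction of −0.57 did not pass (limma, p = 0.0819, adjusted p = 0.999). Tmem189, which overlaps Cebpb on the other strand, stood at 15.9 FPKM in aged AL mouse 14, its lowest value. Whether reads of Tmem189 entered the Cebpb values was not tested. The libraries were stranded, and the sources used here do not say whether quantification used strand.

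Cebpd (ENSMUSG00000071637, chr16:15887286-15891031, plus strand) was the most abundant member. Aged CR mice had 37.9, 34.4 and 34.4 FPKM, against 38.1, 29.5 and 43.4 FPKM in aged AL mice. Young CR mice had 45.3, 38.8 and 45.8 FPKM, against 30.9, 42.7 and 38.9 FPKM in young AL mice. The groups overlapped at both ages. The log2 difference over both ages was 0.09, with a 95% interval of −0.14 to 0.31 (limma, adjusted p = 0.757), and the exact permutation test gave p = 0.505. Its upper bound lay below the estimates for Rxra, Cebpa, Pparg and Klf15. The intervals of Rxra, Cebpa and Pparg overlapped with that of Cebpd, and differences between genes were not tested. Spidr overlaps Cebpd on the other strand at a mean of 6.15 FPKM.

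The precursor factors were close to the limit of the table. Zfp423 (ENSMUSG00000045333, chr8:87661810-87959595, minus strand) ranged over 0.271 to 0.498 FPKM in aged CR, 0.318 to 0.444 in aged AL, 0.348 to 0.573 in young CR and 0.261 to 0.387 FPKM in young AL mice. Ebf2 (ENSMUSG00000022053, chr14:67233292-67430918, plus strand) ranged over 0.0636 to 0.0976, 0.0457 to 0.1, 0.0737 to 0.0947 and 0.0723 to 0.136 FPKM in the same groups. All groups overlapped for both genes. Exact permutation tests of diet within age gave p = 0.165 for Zfp423 and p = 0.935 for Ebf2, and a fit without the filter called neither (limma, adjusted p = 0.678 and 0.984 over both ages). Read counts were not used here, so whether a change could have been seen at such levels cannot be stated.

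Age was tested in the same way, over both diets. Of the 6 members 0 passed in limma, against 0.758% of all genes. At an unadjusted p under 0.05 (limma) there were 0 members, against 924 genes higher and 1326 lower with age of the 13590 tested. Rxra came nearest, with a mean of 6.04 FPKM in aged and 5.39 FPKM in young mice, a log2 difference of 0.13 (limma, adjusted p = 0.367). Its exact permutation p of age within diet was 0.05, and its aged AL values (4.85 to 5.09 FPKM) all exceeded its young AL values (4.47 to 4.75 FPKM), as they did for 5.59% of all genes tested. Cebpd ran the other way under CR, at 34.4 to 37.9 FPKM in aged and 38.8 to 45.8 FPKM in young CR mice, a separation that 10.6% of genes showed in that direction. Of the 16 comparisons of age within a diet over the 8 members, these 2 were the ones without overlap. The other exact p-values for age were 0.23 to 0.84. For the interaction of diet and age, 0 members passed in limma, as 0% of all genes did. At an unadjusted p under 0.05 there was 1 member, Cebpa, with a negative value. Over the 13590 genes tested, 322 positive and 253 negative values met the same measure. A diet effect confined to one age was thus not shown for any member.

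Genes downstream were counted next. The list of adipocyte targets of PPARγ and C/EBPα holds 18 genes, of which 15 were tested. Over both ages 3 were called higher under CR, while 0.258% of all genes tested were called in either direction. The 3 were Lpl, which releases fatty acids from lipoproteins, Retn, which encodes the hormone resistin, and Cidec, a lipid droplet protein. Their log2 differences were 0.76, 1.63 and 1.40 (limma, adjusted p = 0.00316, 0.00853 and 0.0320), and Plin1, which coats lipid droplets, was at 1.07 without passing (adjusted p = 0.0553). Lpl averaged 53.7 ± 5.27 FPKM in aged CR and 34.4 ± 2.97 FPKM in aged AL mice, and 56.8 ± 2.84 FPKM in young CR and 30.2 ± 3.85 FPKM in young AL mice (SD, n = 3 each). The median of the 15 was 0.76, beside 0.00 over all genes and 0.38 over the 6 members. Lpl alone was also called in young mice (limma, adjusted p = 0.0144), as were 0.0662% of all genes.

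Genes of the glucocorticoid response were also counted. This list and the target list were chosen with earlier results of these data known, and a link of Klf15 to these genes was not tested. Of the 9 genes 8 were tested, and 1 was called higher under CR over both ages, beside 0.258% of all genes called in either direction. A positive difference at an unadjusted p under 0.05 (limma) was found in 8 of 8, against 7.42% of all genes. Their median was 0.84. The gene called was Sult1a1, a sulfotransferase, at 1.05 (limma, adjusted p = 0.0465). Per1, a clock gene, Ddit4, an inhibitor of mTORC1, and Fkbp5, which restrains the glucocorticoid receptor, followed at 0.88, 1.05 and 0.98 (limma, adjusted p = 0.0579, 0.0816 and 0.0844). Nr3c1, the glucocorticoid receptor gene itself, was at −0.05 (limma, adjusted p = 0.771).

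Relatives and partners of the members stayed near the median of all genes. Over both ages 1008 of the 13590 genes tested were higher and 876 lower under CR at an unadjusted p under 0.05 (limma). Of 6 nuclear receptor genes 4 were tested and 0 called in limma, with 0 at an unadjusted p under 0.05 and a median of 0.03. Rxrb, the second RXR gene, was at 0.08 (adjusted p = 0.624), Nr1h3 at 0.14 and Ppard at −0.01, while Rxrg (mean 0.263 FPKM) and Ppara (0.00169 FPKM) were under the filter. Of the other C/EBP genes 3 of 3 were tested and 0 called, with 0 at an unadjusted p under 0.05. Cebpe, a granulocyte factor, was at 0.21, Ddit3, a stress-induced inhibitor of C/EBP dimers, at 0.10, and Cebpg at −0.01. Of 10 coregulator genes 8 were tested and 0 called in limma, with 1 lower at an unadjusted p under 0.05, the coactivator gene Ncoa2, at −0.20 (adjusted p = 0.193). Med1, Ncoa3 and Ep300, further coactivators, were at −0.15, −0.05 and −0.05.

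The wider adipogenic network also had list medians near 0. Of 14 other pro-adipogenic factors 11 were tested and 0 called in limma, with a median of 0.00. At an unadjusted p under 0.05 (limma) 2 were lower, as were 876 of the 13590 genes. The 2 were Stat5b, a mediator of growth hormone signals, at −0.16, and Ebf1, which B cells need as much as fat cells do, at −0.34 (limma, adjusted p = 0.181 and 0.340). Ebf1 was at −0.61 in young mice (limma, p = 0.0148, adjusted p = 0.341) and −0.08 in aged mice. Klf9 and Klf4 were at 0.25 and 0.09. Of 15 anti-adipogenic factors 10 were tested and 0 called in limma, with a median of −0.05. Below an unadjusted p of 0.05 (limma) lay 1 positive and 1 negative difference, against 1008 and 876 over all genes. Runx2, the master regulator of osteoblasts, was at −0.19 and Nr2f2 at 0.19 (limma, adjusted p = 0.226 and 0.285), and Twist1 and Trib2 were at −0.26 and −0.17. List medians of these other regulators and of the C/EBP and receptor relatives thus lay between −0.05 and 0.10, against 0.76 for the targets.

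**Figure D3:**
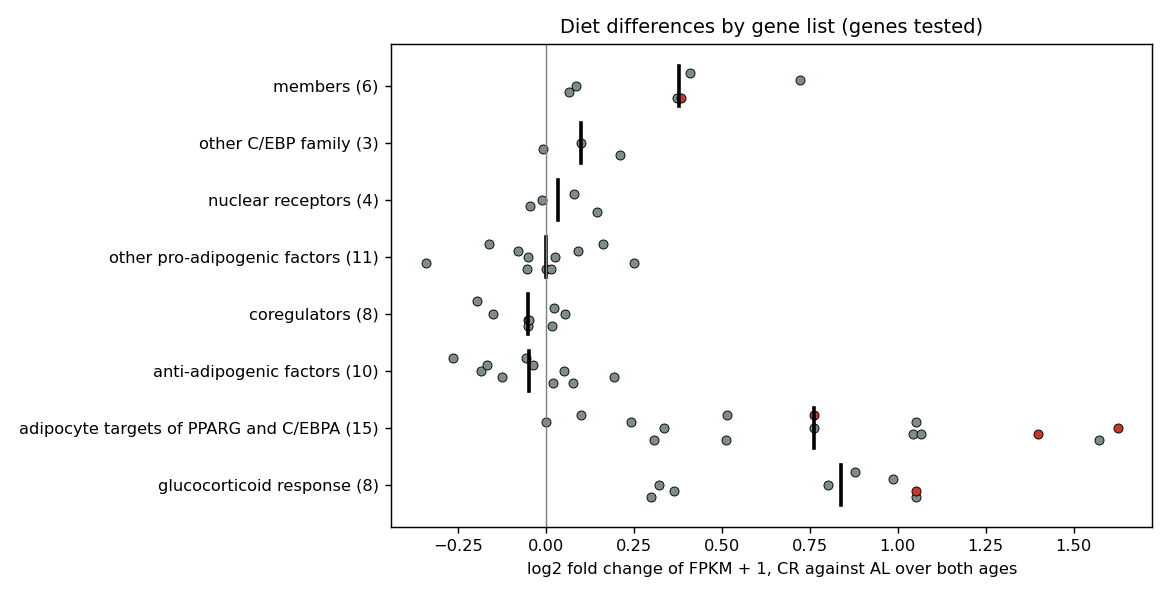
Log2 fold change of FPKM + 1 for CR against AL over both ages (x axis) for each tested gene of 8 lists, with the number of genes in brackets; black bars are list medians and red points have a limma adjusted p under 0.05. Targets and glucocorticoid-responsive genes have medians of 0.76 and 0.84, members 0.38, and the other lists lie between −0.05 and 0.10.

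Cell type markers moved with these results. The 7 adipocyte markers, 6 of them also on the target list, summed to 563 to 949 FPKM in aged CR and 268 to 541 FPKM in aged AL mice, and to 554 to 768 FPKM in young CR and 289 to 329 FPKM in young AL mice. All 7 were higher under CR at an unadjusted p under 0.05 (limma) at each age, against 4.5% of all genes in aged and 5.79% in young mice. Over both ages 3 of these markers were called (0.258% of all genes), and none was at 0 in any mouse. Their part in the rise of Rxra, and in the values of Klf15, Cebpa and Pparg, was not tested. Over the 12 mice, which share the 2 diets, the adipocyte marker level had r = 0.89 with Klf15, 0.86 with Cebpa, 0.74 with Rxra and 0.66 with Pparg. With group means removed these were 0.68, 0.64, −0.42 and 0.01. The value for Klf15 was not particular to adipocyte markers, since the same measure was 0.76 for marrow stromal, 0.71 for endothelial and 0.70 for osteoblast and osteocyte markers. For Cebpa the adipocyte list gave the highest value, and osteoblast and osteocyte markers the next, at 0.46. Aged AL mouse 14 had the lowest adipocyte marker sum of all mice (268 FPKM) beside the highest Pparg of its group.

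Marker lists of other cells were set beside the members too. Before adjustment 1008 of the 13590 genes tested were higher and 876 lower under CR over both ages (limma, p under 0.05). Of 7 monocyte and macrophage markers 3 were higher and 1 was lower by the same measure, and 0 were called in limma. They summed to 666 to 905 FPKM in aged CR, 622 to 1139 in aged AL, 641 to 762 in young CR and 663 to 766 FPKM in young AL mice, and had r = 0.66 with Rxra. Of 6 B lineage markers 2 were lower at an unadjusted p under 0.05 and 0 called. They summed to 111 to 139 FPKM in aged CR, 73.6 to 258 in aged AL, 129 to 168 in young CR and 222 to 276 FPKM in young AL mice, and had r = −0.82 with Pparg and −0.64 with Cebpb. The 6 marrow stromal markers had r = −0.74 with Cebpb and 0.67 with Klf15. By rank (Spearman) the value was weaker for Cebpb, at −0.40, and 0.755 for Klf15. Aged AL mouse 14 held the lowest stromal marker sum, at 256 FPKM. For Cebpb the closest list was the 7 osteoblast and osteocyte markers, with r = −0.88, and aged AL mouse 14 held both the lowest marker sum (287 FPKM, against 487 to 1288 in the other mice) and the highest Cebpb. For Cebpd it was the 11 neutrophil markers, with r = 0.72. With group means removed, Cebpd was closest to monocyte and macrophage markers (0.73), beside 0.67 for neutrophil markers. By that measure Rxra had 0.32 with monocyte and macrophage markers. Pparg kept −0.80 with B lineage markers, its closest list, and Cebpb −0.89 with osteoblast and osteocyte markers. These lists were picked after seeing all 9, over the same 12 mice, and their part in the members' values was not tested.

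**Figure D4:**
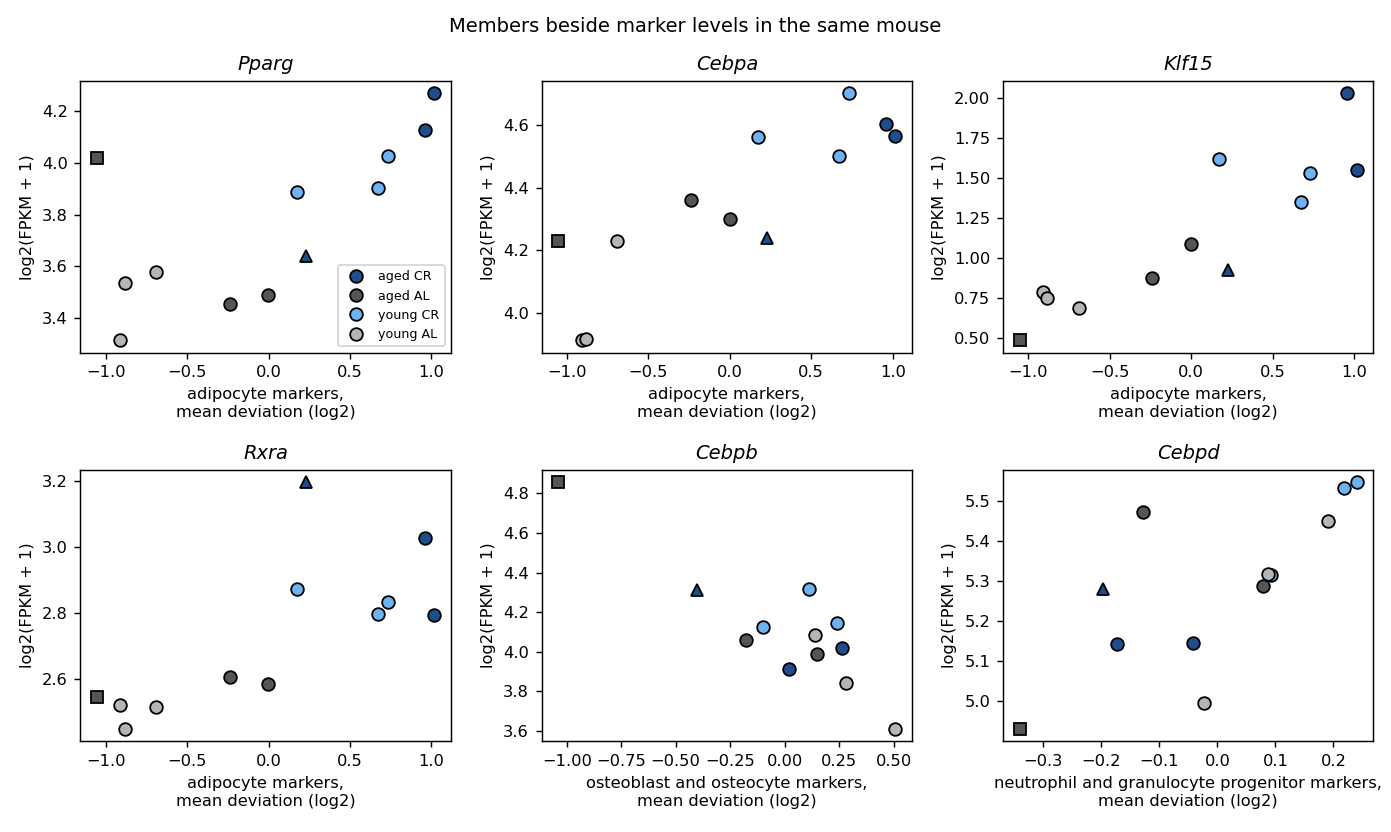
Members' log2(FPKM + 1) (y axis) against the mean deviation of a marker list from its mean over 12 mice in log2 units (x axis); points are mice, coloured by group, with a square for mouse 14 (aged AL) and a triangle for mouse 5 (aged CR). Klf15 and Cebpa climb with adipocyte markers (r = 0.89 and 0.86), and aged AL mouse 14 stands apart for Pparg and for Cebpb.

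Among themselves the members paired unevenly over the 12 mice. Cebpa went most closely with Klf15 (r = 0.81, and 0.61 with group means removed) and with Pparg (0.76, and 0.47). Pparg and Rxra, whose proteins pair, had r = 0.47, which turned to −0.71 once group means were removed. Cebpb and Cebpd had r = −0.06 with each other. The genes most alike in pattern were then listed for each member, over all 13590 tested. For Klf15 they were Gpd1, which makes glycerol 3-phosphate, Ghr, the growth hormone receptor gene, and Adgrg6, at r = 0.95, 0.94 and 0.94. For Cebpa they were Ddit4, Lipe, the hormone-sensitive lipase gene, and Lamb1, at 0.93, 0.93 and 0.93, and for Rxra Maf, a macrophage transcription factor, Ralgds and Gpat4, an enzyme of glycerolipid synthesis, at 0.94, 0.94 and 0.92. Pparg was nearest to Immt, a mitochondrial inner membrane protein gene, Utp6 and Ccdc64, at 0.92, 0.90 and 0.90. Cebpb was nearest to Dph6, Homer1 and Vcpkmt, at 0.91, 0.90 and 0.89, and Cebpd to Atxn10, Ppp1r3b and Extl2, at 0.94, 0.94 and 0.94.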

How the data were processed

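RNA of 12 whole tibiae was sequenced by the authors from stranded mRNA libraries, with 4 technical repeats per mouse in the labels and 1 deposited column per mouse, and the sources used here do not say how repeats were combined. Per the labels and methods, reads were checked with FastQC 0.11.8 and MultiQC 1.6, trimmed with Trim Galore 0.5.0, aligned to mm10 with STAR 2.6.1 and quantified with StringTie 2.1.3b, and the authors quantile normalized the deposited FPKM values in R 4.1.1. At no rank did the mice differ by more than 0.00936 FPKM. Quantile normalization forces equal distributions, and depth per mouse is unknown, so precision rests on the spread between mice. The labels name no batch.

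Identifiers were matched to GENCODE M21 on GRCm38 (99.2% of 29801 found), and promoters were taken from RefSeq. Genes averaging 1 FPKM or more were fitted as log2(FPKM + 1) in limma 3.58.1 (R 4.3.3), with 4 group means and a mean-dependent prior, after a check on simulated data. Each member was also tested by exact permutation of diet within age or age within diet (400 regroupings, smallest p = 0.005, two-sided). 3 mice against 3 allow no exact p under 0.1. Members and lists were chosen with earlier results of these data known. All members are named, and of each list up to 4 genes by smallest limma p for diet over both ages with any gene called; likeness is Pearson's r over 12 mice. Alternatives were a pseudocount of 0.1, no filter, each mouse left out, quality weights for the mice, only the 2 groups compared and an unequal-variance test on FPKM.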

Additional observations from a re-analysis of the deposited data

How the results depend on the processing

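Of 504 refitted log2 differences of the 6 tested members, 460 kept their sign and their side of the threshold, 16 passed newly, 11 no longer passed (all 11 Rxra over both ages) and 17 changed sign, none of those past the threshold. Leaving out each mouse in turn gave 0 to 0 members called in aged and in young mice. It gave 0 to 3 for diet over both ages and 0 to 0 for age and for the interaction. Exact permutation p-values under 0.05, unadjusted, were then found for 3 to 5 members for diet and 0 to 1 for age. With all mice these counts were 4, Klf15 among them, and 0. The permutation tests were not run over all genes, so these counts have no share beside them and are a description. For diet over both ages the count of members called was 4 with quality weights, 4 with mice 14 and 5 both left out (chosen after seeing the data), 0 without the filter and 0 at a pseudocount of 0.1. Leaving aside Klf15, which met the filter only through its CR mice, these counts were 3, 3, 0 and 0. In aged mice it was 2 with quality weights and 1 with both mice left out. In young mice it was 3 with both mice left out, 1 with quality weights and 1 with only the 2 groups compared (2, 1 and 0 leaving aside Klf15). Without the filter, 28537 genes entered the adjustment; the cause of the other changes was not tested. The number of all genes called for diet over both ages was 35, against 9 without the filter, 923 with quality weights, 442 with both mice left out and 8 to 223 with 1 mouse left out. In aged mice the main fit called 0 genes. Quality weights there called 111 genes higher and 82 lower, and leaving both mice out called 18 and 31. In young mice the main fit called 5 genes higher and 4 lower. Leaving both mice out gave 73 and 88 there, quality weights 163 and 141, and only the 2 groups compared 36 and 38.

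Differences that changed sign were not called in any setting. With both mice left out, the interaction was 0.263 for Pparg, −0.022 for Rxra and 0.053 for Klf15, the age difference of Cebpb was −0.024 and the diet difference of Cebpd over both ages −0.012. With quality weights the interaction was 0.137 for Pparg and 0.020 for Klf15. With 1 mouse left out, the interaction ran from −0.233 to 0.081 for Pparg, from −0.006 to 0.195 for Rxra and from −0.335 to 0.217 for Klf15. The diet difference in aged mice then ran from −0.376 to 0.058 for Cebpb and from −0.190 to 0.080 for Cebpd, that of Cebpb over both ages from −0.013 to 0.205, and the age difference of Klf15 from −0.093 to 0.184. No paired analysis was possible because the groups share no mouse number and no label ties a CR mouse to an AL mouse. Depth is unknown, so no count limit can be given for Zfp423 and Ebf2.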
